A study of Homo sapiens with 16 samples.

Results

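The measurements described here come from 12 of the 16 arrays of a time course in MCF10HER2 cells, those with time labels from 12 to 45 h after the HER2 inhibitor CP724,714 was added. MCF10HER2 was made from MCF10A, a nontransformed line of human breast epithelium, by stable transduction, so all the cultures, the untreated one included, over express the receptor tyrosine kinase HER2. The inhibitor, a small molecule that blocks the HER2 kinase, was added at 1 µM to every culture except the one harvested at 0 h, and RNA was taken every 3 h from parallel cultures grown without insulin and serum in medium with EGF and hydrocortisone. Each time point has 1 array, there is no treated and untreated pair at any hour, and no culture kept in vehicle was analysed here. The 12 arrays were split by their time labels into 3 sets of 4, from 12 to 21 h, from 24 to 33 h and from 36 to 45 h, and the question was which genes drift in the same direction inside every set, which genes repeat a course in every set, and which genes move instead from set to set. The sets are a division of the time labels, not batches that the labels name.

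A probe was tested when its detection p was under 0.05 on 6 or more of the 12 arrays, which left 10967 of 20589 probes with 10419 gene symbols. All levels are normalized log2 signals. One common slope was fitted to the 3 sets with a separate level for each set, and it is given as the log2 change over the 9 h from the first to the fourth array of a set. With 1 array per time point the error is the scatter of the 12 arrays about 3 parallel lines. That scatter mixes spread between cultures with real departures from the lines, and there are no replicates at the same hour to separate them.

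Circadian clock genes are known for levels that climb and decline over hours. In the clock the activators BMAL1 (listed here under its older symbol ARNTL), CLOCK and NPAS2 drive the PER and CRY repressors through E-box sequences, and a further loop of the nuclear receptors REV-ERB and ROR acts on BMAL1 itself through the RORE half-site. Genes that respond within hours to HER2 and EGF signalling, such as MYC and EGR1, and to loss of that signalling through the FOXO factors, such as PDK4, are known for fast and transient courses. The mitotic genes follow the passage of cells through the G2 and M phases. In an extract of a whole culture, a smaller share of cells in one state and less RNA per cell cannot be told apart.

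The arrays were close to each other, with correlations between 0.973 and 0.997 over the tested probes. The median background signal ran from 136 to 144 on the 12 to 21 h arrays and from 164 to 174 on the later arrays, so a change between the first set and the later sets ran with the background and its part in such a change was not tested. The 18 h array was the dimmest, with an upper quartile intensity of 418 against 558 to 804 on the other 11 arrays. For 5 array measures (background, upper quartile, detected probes, spread of the negative controls and share of the signal in the brightest probes) a slope inside the sets was tested with an exact two-sided permutation test over 13824 orders, and the adjusted p ran from 0.963 to 0.985. The count of detected probes still fell in all 3 sets, by 156, 347 and 70 over 9 h (unadjusted permutation p = 0.395). The spread of the negative controls rose in all 3, by 3.99, 0.98 and 13.7 (unadjusted permutation p = 0.329). The part of these measures in the slopes of genes was not tested. Of 14 basal breast epithelial markers 10 were detected on all 12 arrays, among them KRT5 and KRT17, and 3 (KRT14, ITGA6 and LAMB3) on none. The LAMB3 probe was nevertheless bright, with a mean log2 signal of 11.8. Of 10 luminal markers 7 were detected on all 12, among them KRT8 and KRT18, and 2 (ESR1 and PGR) on none. Markers of other cell types were also detected on all 12 arrays, with 3 of 10 leukocyte, 1 of 6 endothelial, 1 of 5 erythroid and 2 of 6 neural markers. Of 10 fibroblast markers 6, among them COL1A1, COL1A2 and PDGFRB, were detected on none of the 12 arrays, and 2 (DCN and FAP) were detected on all 12.

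The common slope was called for 4 probes of 10967 (0.0365%), 2 that rose (0.0182%) and 2 that fell (0.0182%) within the sets. ARNTL and TMEM46 (now SHISA2, which codes for a membrane protein of the Shisa family) rose, and SOX15 (a SOX family transcription factor) was among those that fell. At an unadjusted p under 0.05 there were 1140 probes (10.4%), 561 with a positive slope (5.12%) and 579 with a negative one (5.28%). The 3 slopes fitted to each set alone had the same sign in 3269 probes (29.8%), 1605 upward (14.6%) and 1664 downward (15.2%). They did so in 920 of the 1140 probes with an unadjusted p under 0.05. The common slope is the average of the 3 set slopes, so a small p by itself favours one sign and the 920 are no separate support. The count of probes called on the common slope was 1 without the 21 h array, 15 without the dim 18 h array and 23 without the 27 h array. It was 68 without the 36 h array and 107 without the 45 h array. ARNTL was called in each of the 12 fits that left out 1 array. Over all tested probes the median slope was 0.0017, the median size of a slope 0.088 and the median SE 0.11.

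ARNTL had the smallest p of the 10967 probes on the common slope. Its log2 signal was 8.02, 8.45, 8.70 and 9.11 at 12, 15, 18 and 21 h. It was 7.85, 8.26, 8.75 and 8.94 at 24, 27, 30 and 33 h. It was 7.45, 7.48, 8.25 and 8.46 at 36, 39, 42 and 45 h. Each array was above the one before it in all 3 sets, and the first array of each later set lay below the last array of the set before, by 1.26 at 24 h and by 1.49 at 36 h. The common slope was 1.11 (SE 0.11, 95% interval 0.88 to 1.34, limma adjusted p = 3.08e-05), which is a 2.16-fold rise over 9 h. The slopes of the sets alone were 1.06, 1.13 and 1.14, and their difference was not called (adjusted p = 1). The mean of the set ran the other way and fell by 0.66 from the 12 to 21 h set to the 36 to 45 h set (SE 0.099, limma adjusted p = 1.76e-05), so the values traced a sawtooth that rose inside the sets and stepped down between them. The background correction rests on negative control levels that were inferred from the detection p-values lying on regular steps. With the levels inferred from all detection p-values, an alternative chosen after seeing the data, the slope of ARNTL was 0.48 (adjusted p = 5.2e-05). ARNTL was the only called probe whose set means ran against its slope. A step at a set boundary beyond the common line was called for all 4 probes with a called slope.

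**Figure D1:**
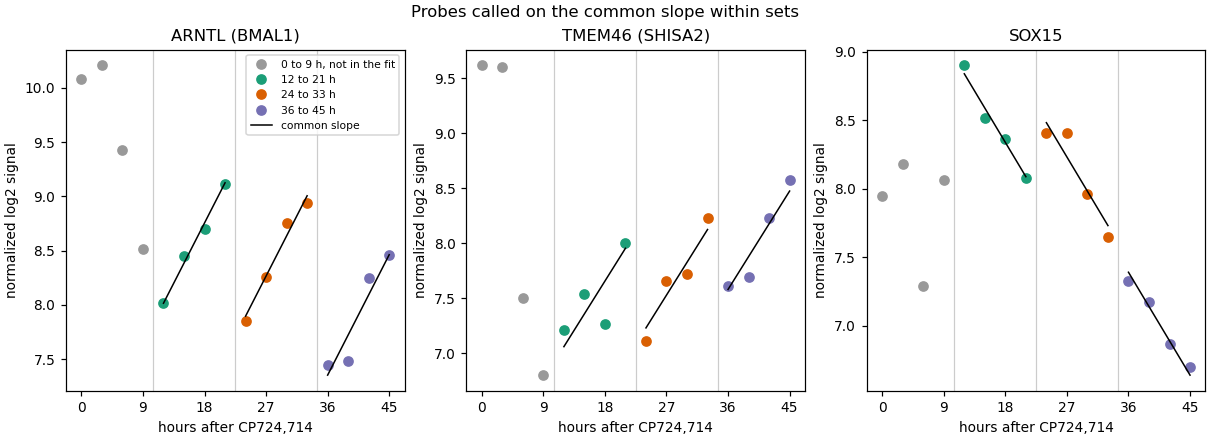
Normalized log2 signal of ARNTL, TMEM46 and SOX15 against hours after CP724,714, 1 point per array, with the common slope drawn through each set of 4 arrays (black lines) and the 0 to 9 h arrays, which were not fitted, in grey. ARNTL rises by 1.11 inside every set and starts the next set lower, TMEM46 ends each set at its highest value, and SOX15 falls inside every set.

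The promoter of BMAL1 from RefSeq (GRCh38.p14) is shown because ARNTL carries the drift, with those of NFIL3 and BHLHE40 as clock genes whose slopes had opposite signs. NFIL3 codes for a repressor that shares D-box sites with DBP and TEF, and BHLHE40 (listed as BHLHB2, also known as DEC1) for an E-box repressor. The windows run from 250 bases before to 50 bases after an annotated start, in the direction of the gene. Capitals mark the half-site AGGTCA or the E-box CACGTG, each searched on both strands. BMAL1 and NFIL3 each have 2 annotated starts in the table, and the window with a match is printed. The other window of BMAL1 held neither motif, and the other window of NFIL3 held no AGGTCA.
BMAL1, chr11:13277540-13277839, plus strand: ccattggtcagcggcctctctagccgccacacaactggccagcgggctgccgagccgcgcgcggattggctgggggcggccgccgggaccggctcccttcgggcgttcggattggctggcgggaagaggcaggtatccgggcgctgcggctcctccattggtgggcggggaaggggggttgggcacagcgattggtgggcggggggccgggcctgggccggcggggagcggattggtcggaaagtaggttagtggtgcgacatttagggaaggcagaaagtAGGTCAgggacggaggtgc
NFIL3, chr9:91423783-91424082, minus strand: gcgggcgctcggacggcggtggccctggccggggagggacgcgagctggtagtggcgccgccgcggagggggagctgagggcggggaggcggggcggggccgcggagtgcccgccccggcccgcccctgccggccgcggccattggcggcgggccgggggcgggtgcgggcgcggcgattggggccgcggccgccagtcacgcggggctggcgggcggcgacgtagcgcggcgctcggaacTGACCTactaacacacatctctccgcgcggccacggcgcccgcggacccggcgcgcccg
BHLHE40, chr3:4979187-4979486, plus strand: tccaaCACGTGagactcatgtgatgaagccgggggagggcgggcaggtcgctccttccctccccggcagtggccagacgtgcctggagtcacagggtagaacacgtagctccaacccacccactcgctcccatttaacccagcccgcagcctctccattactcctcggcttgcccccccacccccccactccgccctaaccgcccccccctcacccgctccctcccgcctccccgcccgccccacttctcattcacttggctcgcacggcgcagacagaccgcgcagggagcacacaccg
The half-site began at position 32 from the start of BMAL1 and at position -9 from the start of NFIL3, where it read on the opposite strand, and the E-box of BHLHE40 began at position -245 from its start. Of the tested clock genes 16 had a promoter in the table, and AGGTCA lay in those of 5 (31.2%) and CACGTG in those of 5 (31.2%). Among 7872 tested genes with a promoter the shares were 13.5% and 12.8%, and among all 27305 genes with a window 16.5% and 8.77%. These are matches of letters only.

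The circadian clock list held 23 genes, of which 19 were tested and ARNTL alone was called. A further 3 genes had a positive slope and 3 a negative slope at an unadjusted p under 0.05, which with ARNTL makes 4 of 19 upward and 3 of 19 downward beside 5.12% and 5.28% of all probes. The median slope of the list was -0.0039. On the upward side were CRY1 (a repressor of the CLOCK and BMAL1 complex) with 0.55 (SE 0.13, limma adjusted p = 0.098), NPAS2 (a partner of BMAL1) with 0.53 (SE 0.13, adjusted p = 0.10) and NFIL3 with 0.44 (SE 0.089, adjusted p = 0.061). None of the 3 passed the test.

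NFIL3 had nearly the same slope in each set, with 0.47, 0.40 and 0.45. Its log2 signal was 9.76, 10.10, 9.96 and 10.33 in the 12 to 21 h set, 9.85, 10.06, 10.19 and 10.24 in the 24 to 33 h set and 9.61, 9.72, 10.12 and 9.98 in the 36 to 45 h set. The first array was the lowest in all 3 sets. CRY1 read 7.57, 7.84, 7.91 and 8.0, then 7.54, 7.84, 8.15 and 7.98, then 7.16, 7.39, 8.01 and 7.78. For CRY1 too the first array of each set was the lowest, and the set slopes were 0.41, 0.49 and 0.74. NPAS2 ran from 7.15 to 7.85 and from 7.12 to 7.90 in the first and the second set, and in the third set it began at 7.59, its slope there being 0.12.

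On the downward side BHLHB2 had a slope of -0.45 (SE 0.097, limma adjusted p = 0.074), TEF (a D-box activator) -0.40 (SE 0.14, adjusted p = 0.28) and PER2 (a repressor of the CLOCK and BMAL1 complex) -0.33 (SE 0.12, adjusted p = 0.32). BHLHB2 read 10.54, 10.24, 9.95 and 9.98 in the first set, 10.58, 10.30, 10.06 and 9.99 in the second and 10.12, 10.36, 10.13 and 10.02 in the third. The first array was the highest in the first and second sets only. PER1 and CRY2 had slopes of -0.25 and -0.27, neither past the unadjusted threshold, while CLOCK, RORA and ARNTL2 (BMAL2) had slopes of -0.14, 0.02 and -0.03.

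**Figure D2:**
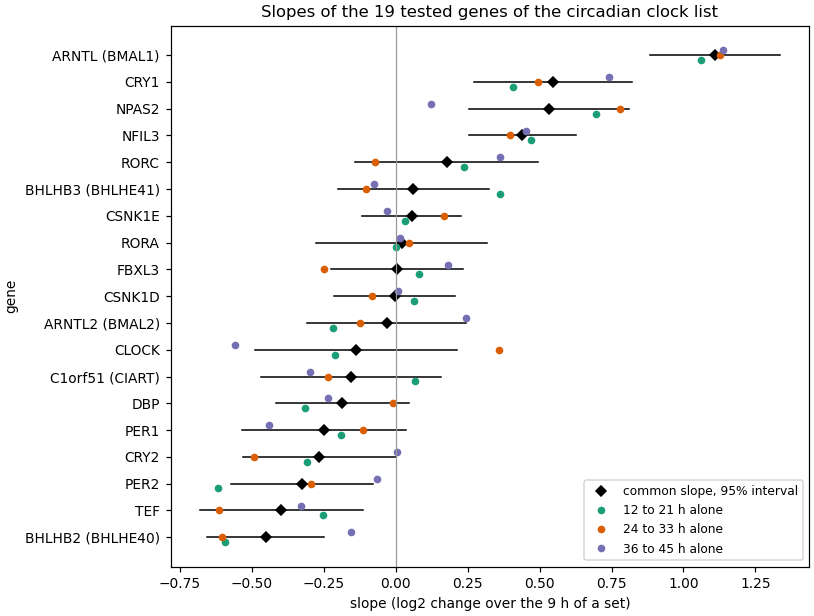
Slopes of the 19 tested clock genes in log2 units over the 9 h of a set, with the common slope and its 95% interval in black and the slope of each set alone as coloured points. ARNTL stands apart at 1.11 with 3 nearly equal set slopes, NFIL3, NPAS2 and CRY1 lie between 0.44 and 0.55, and BHLHB2 is lowest at -0.45.

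SOX15 fell inside the sets, and its set means fell from set to set. The values were 8.90, 8.51, 8.37 and 8.08, then 8.41, 8.41, 7.96 and 7.65, then 7.32, 7.17, 6.86 and 6.70. No array was above the one before it in any of the 3 sets, and the third set lay wholly below the other sets, while the 24 h array was above the 21 h array by 0.33. A step beyond the common line was called for SOX15 too (limma adjusted p = 0.0151). The common slope was -0.75 (SE 0.11, limma adjusted p = 0.00468), a 1.68-fold fall over 9 h, and the set mean fell by 1.45 from the 12 to 21 h to the 36 to 45 h set. Without the 21 h array the adjusted p was 0.0504, without the 12 to 21 h set 0.259 and without the 24 to 33 h set 0.0775. The slope was -0.26 with negative control levels from all detection p-values (adjusted p = 0.0375) and -0.46 with no background correction (adjusted p = 0.00521).

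TMEM46 rose inside the sets, at 7.21, 7.54, 7.27 and 8.01, then 7.11, 7.65, 7.72 and 8.23, then 7.61, 7.70, 8.23 and 8.58. The last array was the highest in all 3 sets, and the dim 18 h array was the only one below its predecessor in the same set. TMEM46 also dropped between the sets, by 0.89 at 24 h and by 0.62 at 36 h. The step beyond the common line was called (limma adjusted p = 0.013). The common slope was 0.90 (SE 0.14, limma adjusted p = 0.00796), a 1.86-fold rise over 9 h, and the set mean rose by 0.52. The adjusted p was 0.077 without the 21 h array, 0.059 without the 24 h array and 0.0998 without the 33 h array, at slopes of 0.87, 0.84 and 0.84, and it was 0.119 without the 24 to 33 h set. The slope was 0.27 with negative control levels from all detection p-values (adjusted p = 0.0169) and 0.54 with no background correction (adjusted p = 0.00521).

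The 0 to 9 h arrays were not in the fit, and there ARNTL and TMEM46 had called negative slopes while the slope of SOX15 was not called. ARNTL had a slope of -1.65 from 0 to 9 h and TMEM46 of -3.17, both against their later slopes, and the difference from the common slope was called for both (limma adjusted p = 2.27e-05 and 1.85e-05). SOX15 had a slope of -0.16 (SE 0.29, limma adjusted p = 0.715), and its difference from the common slope was not called. Its log2 signal was 7.94, 8.18, 7.29 and 8.06 at 0, 3, 6 and 9 h. Across all tested probes this difference was called for 2745 (25%).

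The calls were split by how the set means moved. Of the 1140 probes with an unadjusted p under 0.05 for the slope, 737 had a called set mean difference in the direction of the slope, 83 had one against it and 320 had none. The set mean difference itself, 36 to 45 h minus 12 to 21 h, was called for 5084 probes (46.4%), 2649 higher (24.2%) and 2435 lower (22.2%). A step at a set boundary beyond the common line was called for 817 probes (7.45%), for 461 without the 30 h array and for 288 without the 33 h array. The median size of a slope was 0.088 over 9 h, and the median size of the set mean difference was 0.22. The set mean difference spans more hours, from the 12 to 21 h set to the 36 to 45 h set, so these sizes are not on one scale. A steady drift would also feed into it.

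Genes with large called steps and no called slope are given for contrast, taken with the brightest probe of each gene. A slope that was not called can still run in the same direction inside every set. ATP6V1B1, a subunit of the vacuolar proton pump, stood at 9.80 to 10.67 in the first set, 10.52 to 11.26 in the second and 12.54 to 12.97 in the third. Its set mean rose by 2.48, and its common slope of 0.61 did not pass the test (limma adjusted p = 0.058). It still rose inside every set, with set slopes of 0.91, 0.69 and 0.23. ATP6V1B1 was also called for a repeated course, the test described below (limma adjusted p = 0.023). CYP4B1, a cytochrome P450, and EPHB6, an ephrin receptor, rose between the sets by 2.22 and 2.14, with slopes of 0.57 and 0.41 that were not called. The set slopes of CYP4B1 were all positive (0.78, 0.59 and 0.34), while that of EPHB6 was -0.18 in the third set. CALB2 (calretinin), S100P (both calcium-binding proteins) and IGFBP6 (an IGF-binding protein) had set mean differences of -2.82, -2.45 and -2.33, past the threshold, with slopes of -0.24, -0.34 and -0.33 that were not called either. CALB2 was detected on 8 of the 12 arrays and on none from 36 h on, so its level there is only an upper limit. With negative control levels from all detection p-values the set mean differences of CALB2 and EPHB6 were -0.60 and 0.59, and with no background correction -1.59 and 1.23, all past the threshold. TNFRSF6B, a decoy receptor, has a pair of probes that disagreed. Its dimmer probe had a set mean difference of -2.92, past the threshold, and its brighter one of 0.12, which was not called. Of the genes that the study followed, PHGDH (the enzyme that commits glucose carbon to serine) had a slope of -0.25 (SE 0.065, adjusted p = 0.11) beside a set mean difference of -1.32, and VAMP8 (a vesicle SNARE protein) had 0.083 (SE 0.054, adjusted p = 0.65) beside 0.13.

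Genes that repeated a course were sought with the position in the set, 1 to 4, as a factor. The position was called for 19 probes (0.173%), and a departure from a straight line for 13 probes (0.119%), with 10 probes in both. The 4 probes called on the slope were among the 19. Of the 19 probes, 10 went up and 9 went down on average from the first to the second array of a set. The count moved with single arrays, as 112 probes were called without the 36 h array, 3 without the 24 h array, and 4 to 12 without the 12, 21, 27, 30, 33 or 39 h array.

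Among genes detected on all 12 arrays and not called on the slope, the largest called bends belonged to PDK4, MGC17330, EGR1, ST3GAL1, MYC and FJX1. PDK4, the kinase that turns off pyruvate dehydrogenase and a known FOXO and glucocorticoid target, read 7.55, 8.72, 8.68 and 8.86, then 7.92, 8.84, 8.71 and 8.85, then 8.85, 9.67, 9.70 and 9.37. The first array was the lowest in every set by at least 0.52, and the other 3 arrays of a set lay close together. Its position means spanned 0.97 (limma adjusted p = 0.042 for the bend and 0.0023 for the course). TSC22D3 (GILZ, a glucocorticoid-induced regulator) and BCL6 (a transcriptional repressor and FOXO target) were also called for the course, with position means that rose by 0.53 and 0.57 from the first to the second array of a set.

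EGR1, an immediate early transcription factor, read 10.62, 11.61, 11.17 and 11.53, then 11.21, 12.14, 11.57 and 11.83, then 12.34, 12.66, 12.34 and 12.30. The second array was the highest of each set. MGC17330, named as in the array table, peaked on the second array too, with 8.25, 8.67 and 9.14 against 7.16, 7.55 and 8.60 on the first. The position means of these genes spanned 0.74 and 0.92 (adjusted p for the bend 0.047 and 0.038).

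MYC, the growth-related transcription factor, had the opposite course. It read 12.41, 12.11, 12.23 and 12.42, then 12.61, 12.02, 12.42 and 12.31, then 12.35, 11.54, 12.18 and 12.20. The second array was the lowest of each set, and the slope was -0.019. FJX1 (a secreted kinase-like protein) had its low point on the second array with 10.70, 10.48 and 10.12, and ST3GAL1 (a sialyltransferase) with 7.97, 7.98 and 8.23. The position means spanned 0.56 for MYC, 0.55 for FJX1 and 0.67 for ST3GAL1 (adjusted p for the bend 0.037, 0.037 and 0.043). MAT2A (which makes S-adenosylmethionine), CCND1 (cyclin D1) and RRS1 (a ribosome assembly factor) were also called for a bend, and each had its lowest position mean at the second array. For all 6 genes with the largest bends the adjusted p was above 0.05 when the 24, 27, 30, 39, 42 or 45 h array was left out, reaching 0.359 to 0.6, while their spans stayed between 0.441 and 1.12. With no mean-variance trend none of the 6 bends was called (adjusted p = 0.271 to 0.427), and with median scaling only that of EGR1 was. With negative control levels from all detection p-values the spans of PDK4, MGC17330 and ST3GAL1 were 0.52, 0.36 and 0.30, and the bends of PDK4, EGR1 and ST3GAL1 were not called (adjusted p = 0.108, 0.0639 and 0.0639). MLF1, detected on 11 of the 12 arrays, was also called for a bend, with position means that spanned 0.77.

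**Figure D3:**
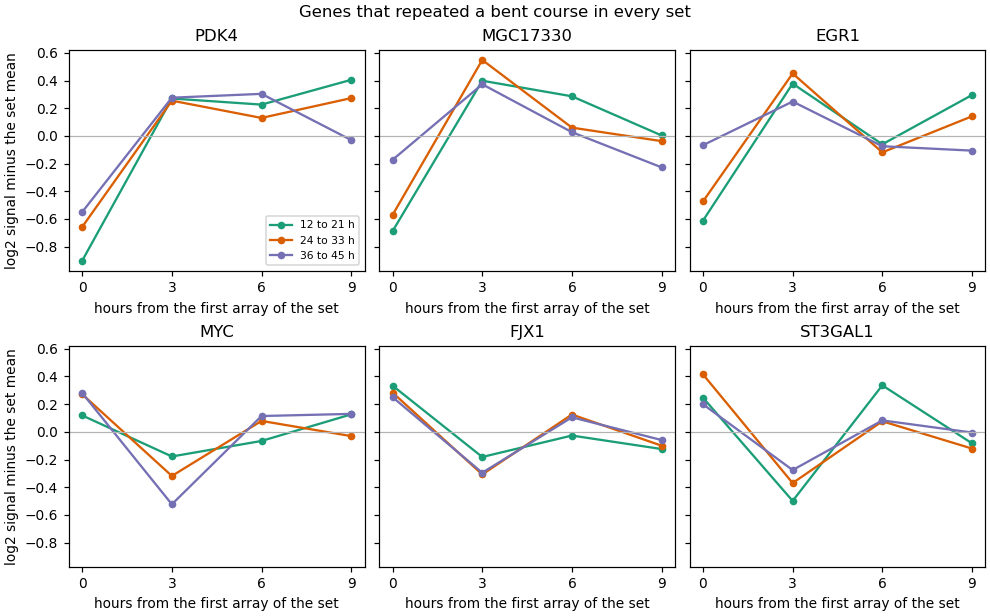
Log2 signal minus the mean of the set against hours from the first array of the set, for the 6 genes with the largest called bends among those detected on all 12 arrays, 1 line per set. PDK4, MGC17330 and EGR1 go up from the first to the second array in all 3 sets, and MYC, FJX1 and ST3GAL1 go down there in all 3 sets.

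The 0 and 3 h arrays were not used in that test and were set beside it. From 0 to 3 h PDK4 went from 6.02 to 9.46, MGC17330 from 6.09 to 8.54, BCL6 from 10.25 to 11.92 and TSC22D3 from 12.63 to 13.65. Over the same hours MYC went from 12.36 to 10.20 and FJX1 from 10.97 to 10.17. The first step inside the later sets had the sign of the change from 0 to 3 h in 13 of the 19 probes called for the course, against 43.8% of all tested probes, but EGR1 moved by little at 3 h (12.29 to 12.41) and MAT2A, CCND1 and ST3GAL1 went up where their later first steps went down. The cultures also received fresh medium at 0 h, so that medium change and inhibitor cannot be told apart at 3 h.

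The 3 sets did not share a slope in 33 probes of 32 genes (0.301%). All 33 had positive slopes in the 12 to 21 h and the 24 to 33 h set and a negative slope in the 36 to 45 h set, with medians of 0.54, 1.08 and -0.37. Of the 33 probes, 18 belonged to 17 genes of the G2/M and mitosis list, among them CCNB1 and CCNB2 (the B-type cyclins), CDC20 and UBE2C (which act with the anaphase-promoting complex), KIF20A and KIF2C (kinesins), CENPA, CENPE and CENPF (centromere proteins), STK6 (the Aurora A kinase, now AURKA) and its activator TPX2. Relative to each probe's mean over the 12 arrays, the median of the 33 went from 0.11 at 12 h to 0.67 at 21 h, started again at -0.72 at 24 h and reached 0.38 at 33 h, then went from -0.14 at 36 h to -0.54 at 45 h.

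Without the 36 h or the 45 h array 2 probes were called, and without the 27 h array 53. KIF20A, a mitotic kinesin, read 11.15, 11.51, 11.66 and 11.94, then 9.88, 10.67, 11.32 and 11.55, then 10.93, 10.99, 10.81 and 10.58. Its set slopes were 0.76, 1.70 and -0.37 (limma adjusted p = 0.000226 for the difference). CCNB1 read 10.49, 10.68, 11.04 and 11.40, then 9.39, 10.12, 10.40 and 10.81, then 10.27, 10.10, 10.08 and 10.12, with set slopes of 0.93, 1.36 and -0.14 (adjusted p = 0.00177). Both genes had their lowest value of the 12 arrays at 24 h and dropped by 2.06 and 2.01 from 21 h to 24 h. HMMR (a spindle-associated protein), ARL6IP (now ARL6IP1, a membrane protein of the endoplasmic reticulum) and ASPM (a spindle pole protein) followed the same course, with adjusted p of 0.0011, 0.0011 and 0.00177.

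**Figure D4:**
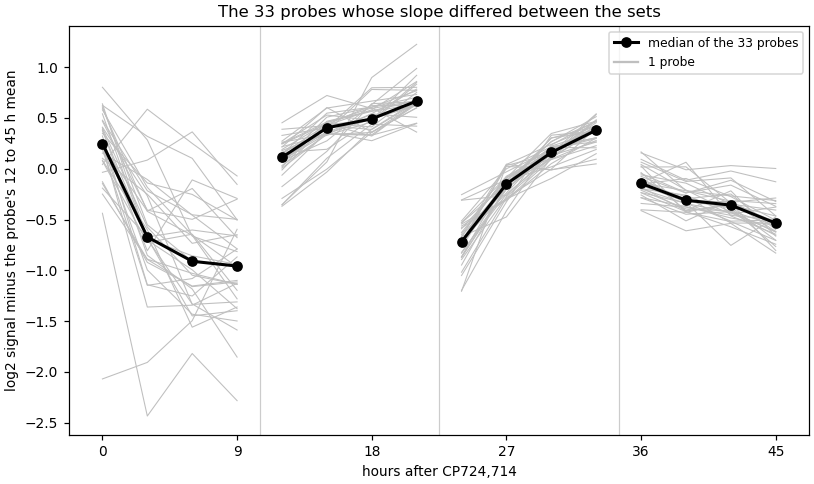
Log2 signal of the 33 probes whose slope differed between the sets, each minus its own mean over 12 to 45 h, against hours after CP724,714 (grey lines, with the median in black). The median climbs from 0.11 to 0.67 in the first set and from -0.72 to 0.38 in the second, and declines from -0.14 to -0.54 in the third.

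Promoters of 3 of these genes are shown because CCAAT boxes and the cell cycle element TTTGAA are the known shared features of G2/M promoters. They are RefSeq windows of GRCh38.p14, from 250 bases before to 50 bases after the start, and capitals mark CCAAT and TTTGAA on either strand.
KIF20A, chr5:138178862-138179161, plus strand: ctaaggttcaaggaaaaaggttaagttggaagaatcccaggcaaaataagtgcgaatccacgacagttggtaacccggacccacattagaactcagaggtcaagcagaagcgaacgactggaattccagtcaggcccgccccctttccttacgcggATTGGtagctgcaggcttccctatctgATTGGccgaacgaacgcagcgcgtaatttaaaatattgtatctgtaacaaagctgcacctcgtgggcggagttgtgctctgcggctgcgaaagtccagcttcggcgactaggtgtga
CCNB1, chr5:69166900-69167199, plus strand: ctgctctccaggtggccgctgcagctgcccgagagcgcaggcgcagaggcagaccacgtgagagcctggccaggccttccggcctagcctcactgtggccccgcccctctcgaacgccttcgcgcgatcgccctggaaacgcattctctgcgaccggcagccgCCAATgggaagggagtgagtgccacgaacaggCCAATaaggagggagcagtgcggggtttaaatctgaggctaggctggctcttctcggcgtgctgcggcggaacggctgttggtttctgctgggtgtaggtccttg
HMMR, chr5:163460382-163460681, plus strand: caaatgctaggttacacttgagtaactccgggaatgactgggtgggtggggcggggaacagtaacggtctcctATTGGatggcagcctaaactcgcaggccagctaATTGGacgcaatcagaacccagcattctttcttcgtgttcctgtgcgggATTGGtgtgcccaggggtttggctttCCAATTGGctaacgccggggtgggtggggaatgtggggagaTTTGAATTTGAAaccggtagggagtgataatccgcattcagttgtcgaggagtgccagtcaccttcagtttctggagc
KIF20A and CCNB1 held CCAAT at 2 places each and no TTTGAA, and HMMR held 7 matches of the 2 motifs, with TTTGAA at positions -28 and -22 from its start. Of the 32 genes 24 had a promoter in the table, and CCAAT lay in those of 21 (87.5%) and TTTGAA in those of 13 (54.2%). Among the tested genes with a promoter the shares were 44.4% and 14.0%, and among all genes with a window 39.7% and 18.2%. No test was made of these shares.

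Over the G2/M and mitosis list as a whole, 42 genes were tested and none was called on the common slope. At an unadjusted p under 0.05, 21 had a positive and 0 a negative slope, beside 5.12% and 5.28% of all probes. Their median slope was 0.26 beside 0.0026 for all genes, and by set it was 0.38, 0.68 and -0.28. A positive slope in all 3 sets was seen in 3 of the 42, beside 14.6% of all probes. The list of G1/S and DNA replication genes ran the other way, with 20 of 36 genes below 0 at an unadjusted p under 0.05 (5.28% of all probes), 0 above, and a median slope of -0.18. Its examples were MCM5 (a subunit of the replicative helicase) with -0.38 (SE 0.088, limma adjusted p = 0.089), E2F1 (which drives S phase entry) with -0.41 (SE 0.11, adjusted p = 0.14) and MCM10 with -0.54 (SE 0.14, adjusted p = 0.13). In 13 of the 36 the slope was negative in all 3 sets, beside 15.2% of all probes, and by set the medians were -0.30, -0.24 and -0.05. The set means of both lists were lower at 36 to 45 h than at 12 to 21 h, by medians of -0.87 and -0.76.

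In several other lists the slopes with an unadjusted p under 0.05 were mostly of one sign, to be read beside 5.12% positive and 5.28% negative over all probes. In others they were split, with 3 positive and 3 negative of 24 heat shock and chaperone genes, 2 and 3 of 16 replication-dependent histones and 2 and 3 of 18 fatty acid synthesis genes. Of 21 tested hypoxia response genes, 11 had a negative slope at an unadjusted p under 0.05, and 0 a positive one. The median slope was -0.26, with -0.22, -0.57 and -0.02 in the sets. Among the genes with a negative slope that was not called were STC1 (stanniocalcin, a secreted glycoprotein) with -0.84 (SE 0.18, limma adjusted p = 0.07), NDRG1 with -0.64 (SE 0.15, adjusted p = 0.098) and LOX (which crosslinks collagen) with -0.24 (SE 0.070, adjusted p = 0.19). In the list of integrins, laminins and matrix genes 9 of 28 were negative and 0 positive at that threshold, and 5 of 12 epithelial keratins were negative, with KRT6A, a keratin of activated keratinocytes, at -0.46 (SE 0.098, adjusted p = 0.074). Of 22 glycolysis genes 5 were negative and 0 positive.

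On the upward side, 8 of 26 tested FOXO targets had a positive slope at an unadjusted p under 0.05 and 0 a negative one (5.12% and 5.28% over all probes), with a median slope of 0.12. They were PDK4 with 0.81, BCL6 with 0.49, FBXO32 (atrogin-1, a ubiquitin ligase) with 0.47, GABARAPL1 (an autophagy protein) with 0.41, CITED2 with 0.34, PINK1 (a mitochondrial kinase) with 0.31, CDKN1B (the cyclin-dependent kinase inhibitor p27) with 0.28 and TXNIP (an inhibitor of thioredoxin and glucose uptake) with 0.25. The smallest limma adjusted p of the 8 was 0.068, for GABARAPL1. Of 26 interferon response genes 5 were positive and 0 negative, and 10 were positive in all 3 sets, none of the 26 being negative in all 3 (14.6% and 15.2% over all probes). Of 17 cytokines and NF-kB targets 4 were positive and 0 negative, with IL8 (now CXCL8, a neutrophil chemokine) at 0.76 (SE 0.21, adjusted p = 0.14). Of 20 glucocorticoid response genes 6 were positive and 1 negative. The 41 tested cytosolic ribosomal proteins had a median slope of -0.00095, 2 positive and 2 negative.

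**Figure D5:**
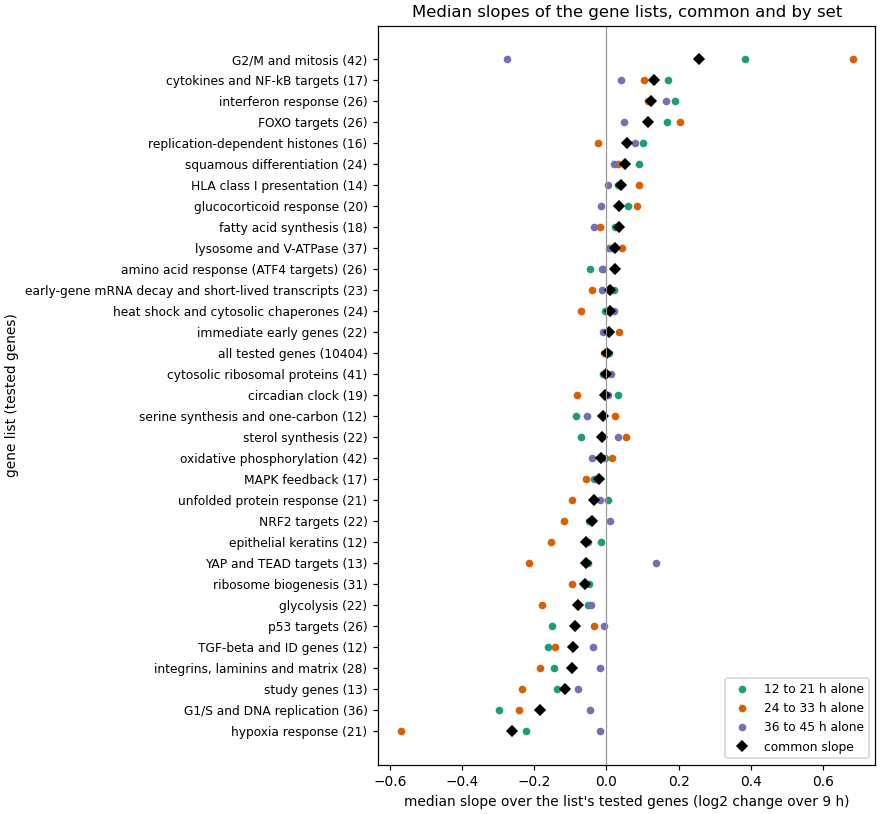
Median slope of the tested genes of each list with 10 or more of them, in log2 units over the 9 h of a set, for the common slope (black) and for each set alone (colours). The G2/M list has the highest common median at 0.26 but is negative in the 36 to 45 h set, and the hypoxia list has the lowest at -0.26.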

How the data were processed

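The authors deposited the intensity of each of 20589 probes on 16 Illumina arrays, not normalized between arrays, and beside each intensity a detection p-value that sets the probe against the negative controls of its array. Per the labels, biotinylated cRNA was made from total RNA of parallel cultures. The detection p-values of 1444 probes (627 of those tested) were off the 708 steps that all other probes follow, and 91 of them had intensities over 1000 with p above 0.05, so the negative control moments were inferred from the other probes. Intensities of all probes were then corrected with neqc (limma 3.58.1, R 4.3.3, offset 16, quantile normalization over 16 arrays). An offset shrinks the slopes of dim probes, but the other background settings tried gave smaller slopes for the called genes than this one. For ARNTL the slope was 1.11 here and 0.88 with normexp on the signals alone and an offset of 50. It was 0.75 with no background correction and 0.48 with negative control levels from all detection p-values.

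Fits used lmFit, then eBayes (trended prior variance), Benjamini-Hochberg adjustment over 10967 probes and a threshold of 0.05, with 8 residual degrees of freedom for the slope. Set mean differences, steps, set slopes, positions and the 0 to 9 h slope were tested in the same way, and scripts were tested on simulated data. Where a gene had more than 1 probe, the brightest one on average stands for it. Named genes were the largest called slopes of probes detected on all 12 arrays, those with opposed set means, the 6 largest called bends of such probes with no called slope, the 3 largest set mean differences each way among genes with a called step and no called slope, called list members, VAMP8 and PHGDH; others were chosen after their values were seen, and 1 called probe is not reported here. The arrays, sets and gene lists were chosen with earlier results of these data known, so list counts are descriptions. Of 18190 symbols 13336 matched a current RefSeq symbol and 3241 a single synonym.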

Additional observations from a re-analysis of the deposited data

Results flagged for a closer look

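The slope differed between the sets in 33 probes, past the threshold of the test of that difference, although the common slope assumes that the sets share it. KIF20A (limma adjusted p = 0.000226), HMMR (0.0011), ARL6IP (0.0011), ASPM (0.00177) and TMEM71 (0.00177) had the smallest p of these genes. TMEM71 belongs to no list used here, and its log2 signal of 7.70, 8.12, 8.95 and 9.28, then 7.39, 7.58, 8.16 and 8.43, then 7.91, 8.12, 7.59 and 7.41 gave set slopes of 1.67, 1.12 and -0.61.

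The slope from 0 to 9 h differed from the common slope for ARNTL (-1.65 against 1.11, limma adjusted p = 2.27e-05) and TMEM46 (-3.17 against 0.90, adjusted p = 1.85e-05), past the threshold of the test of the difference. ARNTL read 10.08, 10.21, 9.43 and 8.51 at 0, 3, 6 and 9 h, and TMEM46 read 9.62, 9.61, 7.50 and 6.80.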

How the results depend on the processing

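No paired analysis was possible because no time label has more than 1 array. The 4 calls of the common slope became 9 with normexp on the signals alone, 9 without background correction, 7 with median scaling, 13 for probes detected on all 12 arrays, 13 with robust eBayes, 65 with array weights, 2 without the 12 to 21 h set, 2 without the 24 to 33 h set, 120 without the 36 to 45 h set and 1 with the 0 to 9 h set added, where the slope of TMEM46 turned to -0.12. Leaving out 1 array gave 1 to 107 calls. ARNTL was called under every alternative except the added 0 to 9 h set (adjusted p = 0.67). The 19 calls of the recurring course became 1 with no mean-variance trend, 34 with robust eBayes, 36 with array weights, 0 without the 12 to 21 h set, 0 without the 24 to 33 h set, 91 without the 36 to 45 h set, 0 with the 0 to 9 h set added and 3 to 112 when 1 array was left out. The 817 steps became 402 with no trend, 1332 with array weights, 222, 11 and 108 without the first, the second and the third set, 2996 with the 0 to 9 h set added and 288 to 933 when 1 array was left out. The 33 slope differences became 12 with median scaling, 0 with no trend, 0 without the 36 to 45 h set, 1116 with the 0 to 9 h set added and 2 to 53 when 1 array was left out. The set mean difference fell to 2918 with the 0 to 9 h set added, and could not be fitted without the first or the third set. Median scaling moved the split of its calls to 1247 higher and 2901 lower from 2649 and 2435. Chosen after seeing the data, negative control moments from all detection p-values and a test without the 627 probes off the steps each left the same 4 calls, with smaller slopes under the former. The causes were not tested. With 1 array per hour, 8 residual degrees of freedom and no vehicle culture, the precision of each slope is limited by the number of arrays.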

Other observations

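A pair of genes outside the lists used here had nearly equal slopes in all 3 sets without passing the test, and both were chosen after their values were seen. ADAM19, a membrane metalloprotease, had -0.57, -0.64 and -0.56 (common slope -0.59, SE 0.11, limma adjusted p = 0.058), after a slope of 3.87 from 0 to 9 h. From 0 to 9 h its log2 signal went from 6.51 to 9.88, and from 12 to 45 h it went from 8.57 to 6.64. EHF, an epithelial ETS factor, had 0.37, 0.44 and 0.41 (common slope 0.40, SE 0.12, adjusted p = 0.19).

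Without the 36 to 45 h set 120 of the 10967 tested probes were called on the common slope of the remaining sets, 85 of them higher and 35 lower. The higher ones included 22 of the 42 tested genes of the G2/M list, beside 85 of all 10967 tested probes. They also included 28 of the 33 probes whose slope differed between the sets. All 33 had been called with these same arrays and rose in both remaining sets, so that overlap was largely given beforehand. In the 36 to 45 h set alone 30 of the 85 had a positive slope. There the median slope of all tested probes was 0.0012 and the median size 0.114, so the probes as a whole split nearly evenly between the signs. Of the 35 lower probes 19 had a negative slope in that set. They included 4 of the 21 tested hypoxia genes and 3 of the 36 tested G1/S and DNA replication genes, beside 35 of all 10967 tested probes. The set left out was not used in the 120 calls, but it was used in calling the 33 probes. No test was made of these counts.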
